A study of Homo sapiens with 8 samples.

Results

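The comparison described here set RMG1 cells in which ARID1A had been knocked out against wild-type RMG1 cells, over all genes. It took 4 of the 8 RNA libraries of the series, 2 per group, and 16657 of the 57736 genes of the deposited table had enough counts to be tested. RMG1 is an established human line of ovarian clear cell carcinoma, a tumour type in which ARID1A is often mutated. Total RNA was sequenced from wild-type cells (ARID1A and CAPH2 both labelled wild type) and from cells labelled as an ARID1A CRISPR knockout (CAPH2 wild type). The other 4 libraries came from cells with a control shRNA (ARID1A and CAPH2 wild type) and from cells with a CAPH2 knockdown (ARID1A wild type). They entered the fit to give a shared estimate of the spread, and the control shRNA values serve below as a second set of cells with ARID1A. No label says whether the knockout cells were 1 clone or a pool, or whether libraries of the same group stem from separate cultures. The p-values therefore rest on library-to-library spread that could be technical, and differences between clones of the line cannot be told apart from the loss of ARID1A.

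ARID1A encodes a DNA-binding subunit of the BAF form of SWI/SNF, an ATP-driven machine that slides and evicts nucleosomes. BAF complexes keep enhancers and many promoters open, and they oppose polycomb repression at others. Genes that depend on such enhancers tend to be lineage and signal-response genes rather than the housekeeping genes every cell uses.

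Total counts were 24559547 and 27144974 in the wild-type libraries and 35392307 and 37378691 in the knockout libraries, and a single count equals 0.0261 to 0.0413 CPM, counts scaled to library size, across these 4. The log2 CPM of the 2 libraries of a group correlated at 0.981 for wild type and 0.987 for knockout, with chi-square per degree of freedom of 19.9 and 5.35, so the wild-type libraries differed more from each other. Of the markers of the line, PAX8, KRT7, KRT8, KRT18, KRT19 and EPCAM were present in every library. Their list (7 genes tested) summed to 3517 and 3168 CPM in wild type and 2832 and 2883 CPM in knockout. In it EPCAM rose and NAPSA, KRT7, KRT8 and KRT19 fell. The EPCAM call was lost without knockout library 2 (0.25) and with the wild-type and knockout libraries alone (0.28), and the NAPSA call without knockout library 1 (−0.57) or wild-type library 1 (−0.72). NAPSA was at 5.62 and 5.36 CPM in the wild-type and 2.82 and 3.68 CPM in the knockout libraries and at 1.61 and 2.12 CPM with control shRNA, and with both kinds of ARID1A wild-type libraries as the reference its difference turned to 0.022. Markers of other cell types were scarce. The fibroblast list summed to 0.496 and 0.435 CPM in wild type and 1.12 and 1.10 CPM in knockout (1 of 2 tested members rose, COL1A2 and COL3A1 at 0). The leukocyte list summed to 4.88 and 3.51 against 5.87 and 4.88 CPM (1 of 4 rose, 2 fell, CD3E at 0). The endothelial list summed to 1.03 and 0.761 against 0.219 and 0.157 CPM (its 1 tested member, TEK, fell, a call lost without knockout library 2 (−1.91); KDR, CLDN5 and EMCN at 0), and the mesothelial list to 1.12 and 1.45 against 2.00 and 1.88 CPM (its 1 tested member did not pass; MSLN, CALB2 and WT1 at 0). The part of such cells in the results was not tested.

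ARID1A itself stood at 8.80 and 12.1 CPM in the wild-type and 6.66 and 5.61 CPM in the knockout libraries. Both knockout libraries lay below both wild-type libraries, and ARID1A was at 9.87 and 9.69 CPM in the control shRNA libraries. ARID1A fell (log2 fold change −0.77, SE 0.16, edgeR adjusted p = 0.00274), and the transcript was lowered rather than lost. Counts over the whole gene do not show whether the remaining transcript can make protein. The median log2 fold change of its neighbours on chromosome 1 was −0.28.

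The level of many genes differed between knockout and wild type, for most of them by a modest factor. By edgeR's quasi-likelihood test at a Benjamini-Hochberg adjusted p under 0.05, 5751 of 16657 genes (34.5%) changed, with 2794 (16.8%) higher and 2957 (17.8%) lower. At least 2-fold changes numbered 1667 (10%), with 852 (5.11%) higher and 815 (4.89%) lower. Rises were the larger share of the extreme fitted changes: 429 rises and 343 falls reached 4-fold, 135 rises and 89 falls reached 16-fold, and 86 rises and 58 falls reached 32-fold. For genes with 0 counts in a group these fitted sizes are extrapolations. TNFSF15 was fitted at a log2 fold change of 7.94, but its counts bound the rise only at 16.4-fold or more. The knockout libraries were also deeper, and the part of depth in this balance was not tested. The median absolute log2 fold change of the changed protein-coding genes was 0.54, and the median over all genes tested was 0.00. The libraries of both groups did not overlap in 10750 genes (64.5%). With 2 libraries per group such separation also arises in many genes that do not differ, so this is not a count of changed genes. Apart from ARID1A, genes picked by the naming rule given with the processing came only from these genes. Their lack of overlap was fixed in advance.

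Large changes lay mainly among genes of low level. Of 1546 protein-coding genes with a mean up to 1 CPM, 22.0% changed, and all of those changed at least 2-fold. Of 1772 protein-coding genes at 100 CPM or more, 51.8% changed, but 3.78% changed at least 2-fold (33 higher, 34 lower). A gene of low level passes the test only with a large change. Over all 12930 protein-coding genes tested, 2535 rose (19.6%) and 2650 fell (20.5%), and these 2 shares are the background against which the gene groups below are read.

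**Figure D1:**
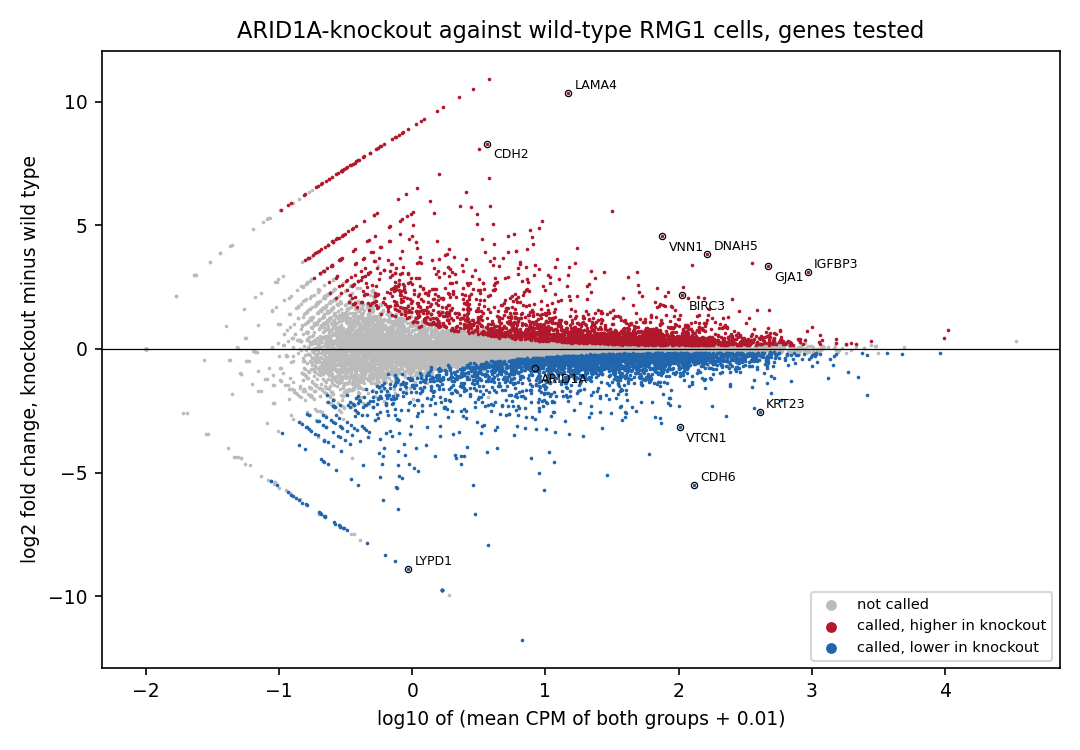
Each point is a gene tested, with its mean level over the wild-type and knockout libraries on the x axis and the log2 fold change, knockout minus wild type, on the y axis, and coloured points passed the test at an adjusted p under 0.05. The x axis is log10 of the mean CPM + 0.01, and the named genes include DNAH5 at 3.83, IGFBP3 at 3.11, CDH6 at −5.52 and ARID1A at −0.77.

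Whole chromosomes differed in balance. Chromosome 10 had 219 protein-coding genes lower and 78 higher of 498 (median log2 fold change −0.21), and chromosome 18 had 72 lower and 12 higher of 184 (median −0.26). Chromosomes 14 (164 lower, 71 higher of 435) and 11 (214 lower, 81 higher of 726) leaned the same way. Chromosome 4 leaned upward with 175 higher and 66 lower of 496 (median 0.17), and chromosome 3 with 222 higher and 111 lower of 748 (median 0.13). A median over the 20 nearest tested protein-coding genes on each side was therefore computed for each protein-coding gene and is given below beside many of the genes for which it is far from 0, as the neighbour median. A gene printed without it need not have a value near 0. It ran from −0.79 to 0.75 and lay beyond 0.3 in either direction for 1216 of 12930 genes. Of the 1348 protein-coding genes that changed at least 2-fold, 1193 still had a fold change that large in the same direction after their neighbour median was subtracted, a step added after the data were seen. Whether the copy number of these regions differed between the cells was not tested.

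**Figure D2:**
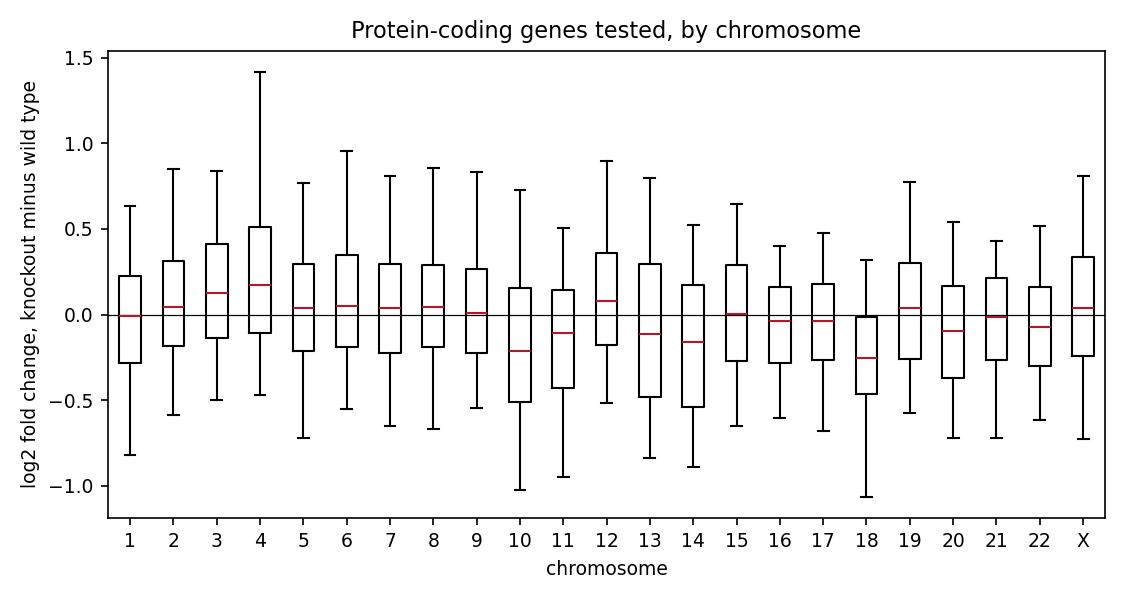
Log2 fold change, knockout minus wild type (y axis), of the protein-coding genes tested on each chromosome (x axis). Boxes span the lower to the upper quartile with the median as a line, whiskers reach the 10th and 90th percentiles, and the medians of chromosomes 10, 14 and 18 lie at −0.21, −0.16 and −0.26.

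Some transcripts were all but absent from the wild-type libraries and present in the knockout. Protein-coding genes were called switched on when the 2 wild-type libraries together held at most 1 count and each knockout library held at least 1 CPM, and switched off in the reverse case. These values chose the genes, so the counts are a description with no test. In bulk RNA a low level in every cell and a high level in a few cells cannot be told apart. By this rule 23 genes were switched on and 3 were switched off. The limit of 1 count is stricter on the deeper knockout libraries: with a mean of at most 0.05 CPM as the limit, a setting chosen after the data were seen, 28 genes were switched on and 9 off. With 0 counts as the limit they were 17 and 1.

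Promoter sequences of the leading switched genes are printed to show what kind of start site they have. Each is the 250 bases before the gene's start in RefSeq on GRCh38.p14, 5′ to 3′ along the gene, and capitals mark matches to TGANTCA, the letters that AP-1 factors bind, searched on both strands. LAMA4, C2orf80 and CDH2 had the highest knockout CPM, which is not scaled to gene length, among genes switched on, and LYPD1 and BASP1 were switched off. CACNG4, the other gene switched off, is named only.
LAMA4 (chr6:112254568-112254817, minus strand): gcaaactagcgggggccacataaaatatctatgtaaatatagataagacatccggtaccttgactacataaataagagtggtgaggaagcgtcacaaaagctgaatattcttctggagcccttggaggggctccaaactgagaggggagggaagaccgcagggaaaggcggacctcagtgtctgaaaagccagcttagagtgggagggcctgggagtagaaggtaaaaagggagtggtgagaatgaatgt
C2orf80 (chr2:208190031-208190280, minus strand): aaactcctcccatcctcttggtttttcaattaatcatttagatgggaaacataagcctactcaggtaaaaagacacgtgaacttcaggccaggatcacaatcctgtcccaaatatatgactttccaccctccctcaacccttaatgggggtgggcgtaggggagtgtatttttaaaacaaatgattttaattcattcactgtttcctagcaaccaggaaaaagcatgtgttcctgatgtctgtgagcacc
CDH2 (chr18:28177131-28177380, minus strand): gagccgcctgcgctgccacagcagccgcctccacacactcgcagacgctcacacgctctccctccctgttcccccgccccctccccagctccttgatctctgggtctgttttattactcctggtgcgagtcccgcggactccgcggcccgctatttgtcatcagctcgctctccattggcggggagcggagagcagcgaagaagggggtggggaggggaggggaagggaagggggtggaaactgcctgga
LYPD1 (chr2:132671527-132671776, minus strand): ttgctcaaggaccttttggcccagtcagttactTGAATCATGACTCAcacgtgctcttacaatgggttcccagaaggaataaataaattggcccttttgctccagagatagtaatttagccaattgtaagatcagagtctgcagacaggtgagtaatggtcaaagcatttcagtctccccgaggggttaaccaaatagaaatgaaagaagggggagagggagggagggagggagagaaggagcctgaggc
BASP1 (chr5:17216573-17216822, plus strand): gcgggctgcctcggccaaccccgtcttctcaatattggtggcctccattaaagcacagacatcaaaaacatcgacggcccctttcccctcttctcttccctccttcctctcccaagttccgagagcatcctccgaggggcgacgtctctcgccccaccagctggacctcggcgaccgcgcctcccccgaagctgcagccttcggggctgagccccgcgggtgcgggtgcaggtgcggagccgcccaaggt

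The LYPD1 promoter held 2 TGANTCA matches side by side, and the other 4 held none. TGANTCA stood in 6.60% of all 27305 promoters of the table and in 1 of the 19 promoters found for genes switched on. None of the 5 held the NF-kB motif searched (in 1.73% of all promoters), GGAATG, the letters of a TEAD site (11.9%), or TATAAA (11.1%). Among tested protein-coding genes the shares were 3.81% for TGANTCA, 1.85% for the NF-kB motif, 9.54% for GGAATG and 5.61% for TATAAA. The promoters differ in CG pairs, of which LAMA4 had 5, C2orf80 2, CDH2 17, LYPD1 2 and BASP1 21. Among the 19 promoters of genes switched on, the median was 8 CG pairs and 10 (52.6%) had 10 or fewer. For the 10551 of 12930 protein-coding genes tested that had an entry, the median was 21 and 17.5% had 10 or fewer. Changed genes of both directions also had more such promoters. Of genes at least 2-fold higher in the knockout 39.1% of 550 promoters had 10 or fewer, and of genes at least 2-fold lower 34.2% of 489. The genes switched on were chosen by their low wild-type level, so this is a description.

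Several of the genes switched on encode matrix, adhesion and secretory proteins. LAMA4, a laminin chain of vascular basement membranes, was at 0.0413 and 0 CPM in the wild-type and 29.96 and 29.6 CPM in the knockout libraries (knockout over wild type 1543, with a counting interval of 277 to 60968). CDH2, the cadherin of neurons and mesenchymal cells, was at 0.0413 and 0 CPM in the wild-type and 7.07 and 7.55 CPM in the knockout libraries. CDH2 was low but present with control shRNA, at 0.588 and 0.475 CPM. CDH18, another cadherin, went from 0 to 3.02 ± 0.634 CPM (mean ± SD, n = 2 per group here and below). SRGN, the core protein of secretory granule proteoglycans, was at 0 in wild type and at 4.60 and 4.36 CPM in knockout (at least 77.4-fold higher in knockout). LGALS1, a secreted galectin, was at 0 and 0.0362 CPM in the wild-type and 6.19 and 6.48 CPM in the knockout libraries.

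Enzymes and regulators appeared too. TDO2, which starts the breakdown of tryptophan, was at 0 and 0.0362 CPM in the wild-type and 3.07 and 3.21 CPM in the knockout libraries (knockout over wild type 163, with a counting interval of 28.9 to 6458). PDE4B, a phosphodiesterase that degrades cyclic AMP, was at 0 in wild type and at 3.89 and 2.87 CPM in knockout (at least 58.2-fold higher in knockout). BRSK2, a kinase of the AMPK family known from neurons, rose from 0 to 2.41 ± 0.428 CPM (at least 41.8-fold higher in knockout), with a neighbour median of −0.27. C2orf80 was at 6.22 and 8.83 CPM and PRSS35, a secreted protease relative, at 5.54 and 5.77 CPM in the knockout libraries, both from 0. The other 13 genes switched on lay between 1.04 and 2.31 CPM in the knockout. They were RASSF2, PTPRC, UGT3A2, METTL7A, CLSTN2, USH1C, FKBP10, ZDHHC11, OGDHL, SH3RF3, TEX48, ATOH8 and ARHGEF4. PTPRC, the leukocyte phosphatase CD45, was among them with 0.0413 and 0 CPM in the wild-type and 2.25 and 1.98 CPM in the knockout libraries, while the T-cell marker CD3E had no counts. The 2 other members of the leukocyte list that passed the test fell, with log2 fold changes of −4.56 and −1.97.

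The 3 genes switched off were LYPD1, CACNG4 and BASP1. LYPD1, a membrane-anchored protein of the Ly6 family, was at 1.98 and 1.70 CPM in the wild-type and 0 and 0 CPM in the knockout libraries (at least 45.7-fold lower in knockout). CACNG4, an auxiliary subunit of calcium channels and AMPA receptors, was at 1.07 and 1.99 CPM in the wild-type and 0 and 0.0261 CPM in the knockout libraries. BASP1, a membrane-bound growth-cone protein, was at 1.24 and 1.12 CPM in the wild-type and 0.0274 and 0 CPM in the knockout libraries (wild type over knockout 88.05, with a counting interval of 15.2 to 3534). All 3 were present in the control shRNA libraries, LYPD1 at 1.70 and 1.68 CPM.

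**Figure D3:**
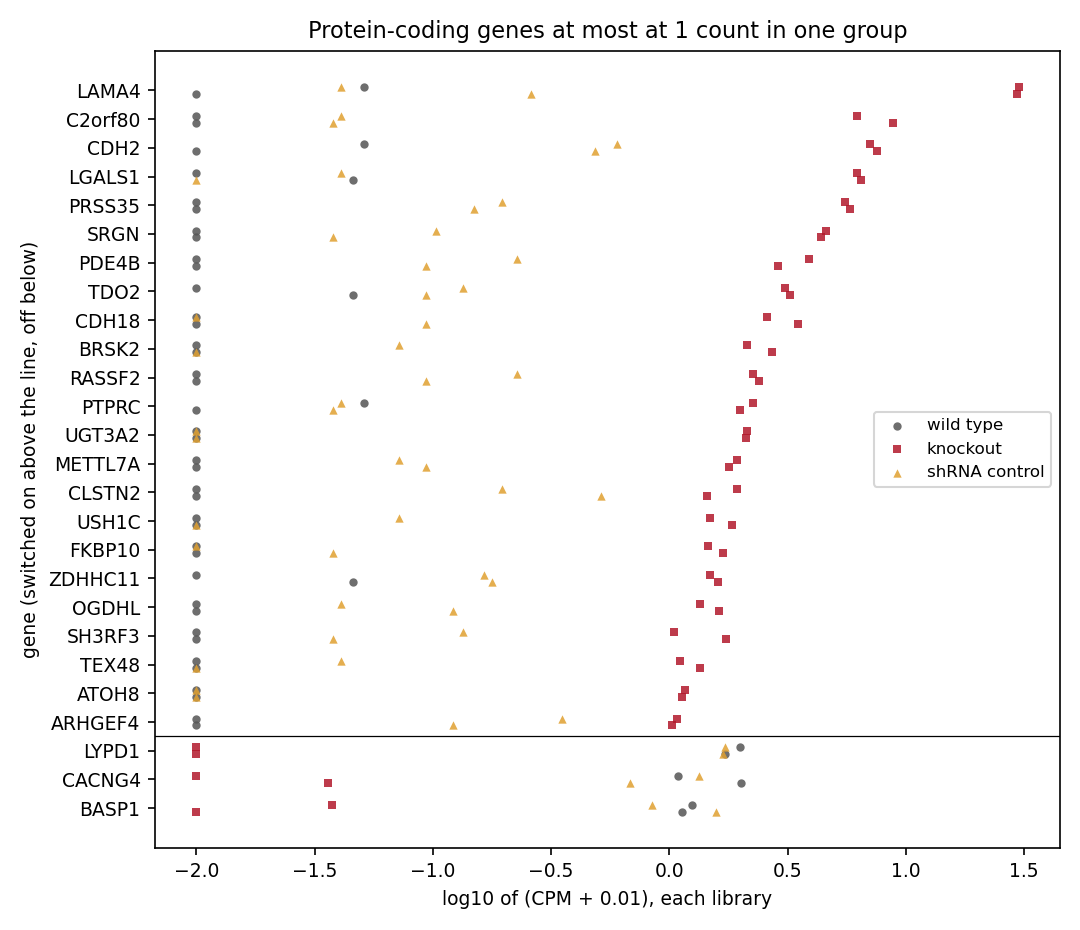
Level of the genes switched on (above the line) and off (below it) in each wild-type, knockout and control shRNA library, as log10 of CPM + 0.01 on the x axis, one gene per row, so that 0 CPM lies at −2. All knockout libraries of the 23 genes switched on lie at 1 CPM or higher, and LAMA4 is the highest in CPM, which is not scaled to gene length.

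Among genes at 100 CPM or more, the rises ranged over secreted, junction and ciliary proteins. DNAH5, a heavy chain of ciliary dynein, was at 21.5 and 21.8 CPM in the wild-type and 312 and 305 CPM in the knockout libraries (log2 fold change 3.83, SE 0.07, edgeR adjusted p = 4.72e-11). GJA1, the gap junction protein connexin 43, was at 91.6 and 76.7 CPM in the wild-type and 864 and 839.7 CPM in the knockout libraries (log2 fold change 3.34, SE 0.08). IGFBP3, the main carrier of insulin-like growth factors, was at 191 and 196 CPM in the wild-type and 1678 and 1668 CPM in the knockout libraries (log2 fold change 3.11, SE 0.06). VNN1, a pantetheinase on the cell surface, was at 5.79 and 6.52 CPM in the wild-type and 141 and 149 CPM in the knockout libraries (log2 fold change 4.55, SE 0.10). The knockout libraries lay far above both wild-type and both control shRNA libraries for these 4 genes. The naming rule required that they did not overlap the wild-type libraries.

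Other abundant rises were scaffolds, immune and stress genes. HLA-DMB, which helps load peptides on class II molecules, was at 24.5 and 19.6 CPM in the wild-type and 229 and 234 CPM in the knockout libraries (log2 fold change 3.40, SE 0.10). AKAP12, a scaffold for protein kinase A, was at 54.8 and 61.6 CPM in the wild-type and 630.4 and 675 CPM in the knockout libraries (log2 fold change 3.49, SE 0.07) and was also higher in the control shRNA libraries, at 158 and 160.1 CPM. BIRC3, an inhibitor of apoptosis and NF-kB target, rose from 38.8 ± 5.20 to 175 ± 9.41 CPM (log2 fold change 2.17) although its neighbour median on chromosome 11 was −0.56. ADGRG6, an adhesion receptor, rose from 21.3 ± 2.24 to 117 ± 2.84 CPM, TMEM47, a junction protein, from 32.3 ± 1.32 to 184 ± 1.29 CPM, and NUPR1, a stress-induced chromatin protein, from 28.02 ± 1.93 to 139.6 ± 6.48 CPM. With control shRNA NUPR1 was at 86.8 and 77.04 CPM and TMEM47 at 69.2 and 69.9 CPM, between the other groups. ADGRG6, at 20.6 and 19.3 CPM, and BIRC3, at 37.3 and 42.2 CPM, stayed near wild type there.

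The abundant falls included a cadherin, an immune checkpoint ligand and enzymes of steroid and sulfide metabolism. CDH6, a kidney cadherin also present in ovarian tumours, was at 258 and 257 CPM in the wild-type and 5.34 and 5.88 CPM in the knockout libraries (log2 fold change −5.52, SE 0.07, edgeR adjusted p = 2.36e-12), and at 89.9 and 90.03 CPM with control shRNA. VTCN1, the B7-H4 ligand that restrains T cells, was at 187 and 182 CPM in the wild-type and 20.3 and 21.3 CPM in the knockout libraries (log2 fold change −3.15, SE 0.06). HSD17B2, which inactivates estradiol, was at 134 and 129 CPM in the wild-type and 15.95 and 16.9 CPM in the knockout libraries (log2 fold change −2.99, SE 0.06). SQOR, the mitochondrial sulfide oxidase, was at 156 and 181 CPM in the wild-type and 35.1 and 32.6 CPM in the knockout libraries (log2 fold change −2.32, SE 0.08). With control shRNA SQOR was at 99.8 and 105 CPM, between the other groups. In all 4 genes both knockout libraries lay below every library of the other 2 groups, and the naming rule required the lack of overlap with wild type.

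KRT23, an epithelial keratin, fell from 697 ± 74.9 to 119 ± 3.99 CPM and DEPDC1B, a cell-cycle regulator, from 126 ± 11.1 to 18.4 ± 0.968 CPM. The transporters SLC10A2, for bile acids, and SLC7A8, for neutral amino acids, fell from 296 ± 3.68 to 59.3 ± 0.289 CPM and from 142 ± 3.72 to 29.6 ± 4.68 CPM. RBP4, the plasma carrier of retinol, fell from 393 ± 23.8 to 60.8 ± 1.49 CPM (log2 fold change −2.69) and PRXL2A, a redox protein, from 615 ± 32.03 to 117 ± 0.731 CPM (−2.40). Both lie on chromosome 10, with neighbour medians of −0.44 and −0.42. Control shRNA libraries held KRT23 at 381 and 413 CPM, SLC10A2 at 181 and 179 CPM and PRXL2A at 439 and 457 CPM, between the other groups. DEPDC1B also lay between them there, at 105 and 102 CPM. RBP4, at 458 and 456 CPM, and SLC7A8, at 212 and 199 CPM, lay above both other groups there.

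Cytokine receptors and ligands changed in both directions. In the interleukin and colony-stimulating factor list, 6 of 37 tested members rose and 9 fell (16.2% and 24.3%, near the 19.6% and 20.5% of protein-coding genes). The receptor subunits for IL-6 and oncostatin M were lower. IL6R was at 53.6 and 54.9 CPM in the wild-type and 14.1 and 13.5 CPM in the knockout libraries (log2 fold change −1.98, SE 0.07). OSMR was at 84.8 and 89.2 CPM in the wild-type and 37.6 and 32.5 CPM in the knockout libraries (log2 fold change −1.31, SE 0.07). For both receptors the knockout libraries lay below the control shRNA libraries and, as the naming rule required, did not overlap the wild-type libraries. IL18R1, a receptor chain for IL-18, rose from 0.0181 ± 0.0256 to 0.828 ± 0.0852 CPM and held 0.619 and 0.419 CPM with control shRNA. For the TNF superfamily, 7 of 20 tested members rose and 3 fell, and the range over the alternative settings was 5 to 11 up. TNFRSF11B, the decoy receptor osteoprotegerin, was at 59.4 and 59.4 CPM in the wild-type and 246 and 255 CPM in the knockout libraries (log2 fold change 2.07, SE 0.05), and TNFSF15, a ligand of death receptor 3, rose from 0 to 0.946 CPM (at least 16.4-fold higher in knockout). CD40 fell from 7.15 ± 0.530 to 4.36 ± 0.584 CPM, a call lost without knockout library 2 (−0.58). In the complement list 5 of 17 tested members rose and 5 fell. SERPING1, the inhibitor of complement C1, fell from 86.8 ± 16.3 to 38.1 ± 2.91 CPM (log2 fold change −1.19). CD55, which protects cells from complement, rose from 21.4 ± 0.526 to 33.9 ± 1.87 CPM and stood at 39.8 and 41.9 CPM with control shRNA.

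Matrix enzymes, inhibitors and surface glycoproteins shifted as follows. In the metalloproteinase list 4 of 18 tested members rose and 4 fell, and the 4 falls were MMP1, MMP7, MMP10 and MMP13, all on chromosome 11. The MMP13 call was lost without knockout library 2 (−3.20) or wild-type library 2 (−2.89). MMP1, interstitial collagenase, was at 59.2 and 53.6 CPM in the wild-type and 1.37 and 1.93 CPM in the knockout libraries (log2 fold change −5.09, SE 0.14), and control shRNA libraries held 18.97 and 19.7 CPM. MMP7, matrilysin, fell from 1003 ± 38.96 to 406 ± 6.76 CPM (−1.31). Neighbour medians of the 4 lay between −0.67 and −0.59, and the part of the region in these falls was not tested. ADAMTS20 rose from 0.566 ± 0.275 to 2.56 ± 0.485 CPM, with a neighbour median of 0.48. Of 9 serpins tested 1 rose and 4 fell. SERPINA1, the inhibitor of neutrophil elastase, was at 19.3 and 17.3 CPM in the wild-type and 2.11 and 1.78 CPM in the knockout libraries (log2 fold change −3.24, SE 0.11, neighbour median −0.52), and SERPINB5, maspin, fell from 4.44 ± 0.332 to 0.629 ± 0.0404 CPM (neighbour median −0.37). Proteoglycans had 7 falls and 3 rises of 15. SDC1 and SDC4, syndecans, fell from 122 ± 0.502 to 94.5 ± 0.986 CPM and from 93.7 ± 0.493 to 76.5 ± 3.41 CPM, and GPC3, a glypican, fell from 11.5 ± 1.22 to 6.37 ± 0.558 CPM. GPC3 held 1.64 and 1.87 CPM with control shRNA, and its change turned to 0.50 with those libraries added to the reference. LUM, a keratan sulfate proteoglycan and fibroblast marker, rose from 0 to 0.531 CPM (at least 9.24-fold higher in knockout), a call that DESeq2 did not make and that was lost without wild-type library 2 (7.14), with the other fibroblast markers as given above.

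Tetraspanins had 5 rises and 7 falls of 22. TSPAN8 rose from 0.140 ± 0.0949 to 2.89 ± 0.204 CPM (log2 fold change 4.37), and TSPAN5, which guides ADAM10, fell from 15.2 ± 0.683 to 3.57 ± 0.255 CPM (−2.09). Galectins had 2 rises and 2 falls of 6, with LGALS3 falling from 82.1 ± 13.3 to 61.03 ± 1.47 CPM, a call lost with control shRNA libraries in the reference. LGALS14, a placental galectin with near-identical copies, was at 1.24 and 1.05 CPM in the wild-type and 0.0822 and 0.0522 CPM in the knockout libraries but at 26.7 and 25.4 CPM with control shRNA, so its level in cells with ARID1A varied widely.

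Axon guidance genes moved in both directions, with 1 small list mostly higher. In the Slit, Robo and netrin list 5 of 8 tested members rose and 1 fell, with a median log2 fold change of 1.03 over the 8 against 0.00 for all genes. ROBO2, a Slit receptor, was at 0.496 and 0.543 CPM in the wild-type and 14.1 and 15.2 CPM in the knockout libraries (log2 fold change 4.81, SE 0.22). Control shRNA libraries held ROBO2 at 2.23 and 2.74 CPM. The related receptor ROBO1 rose from 4.47 ± 0.483 to 11.8 ± 0.260 CPM. NTN1, the secreted guidance cue netrin-1, was at 0 in wild type and at 1.09 CPM in knockout (at least 18.9-fold higher in knockout), a call that DESeq2 did not make. NTNG1, a membrane-bound netrin, fell from 1.17 ± 0.246 to 0.254 ± 0.0102 CPM, and this call was lost without knockout library 1 (−2.14), knockout library 2 (−2.23) or wild-type library 2 (−1.95). Among ephrins and their receptors 3 of 14 tested members rose and 4 fell. EFNA5 and EFNA1, ligands of the A class, fell from 40.7 ± 5.32 to 10.8 ± 0.160 CPM and from 27.04 ± 0.0167 to 8.39 ± 1.59 CPM, whereas EFNB2, a ligand of the B class, rose from 2.47 ± 0.776 to 12.6 ± 0.242 CPM. In the semaphorin list 5 of 22 tested members rose and 7 fell, with SEMA5A up from 0.439 ± 0.0955 to 2.36 ± 0.156 CPM and the coreceptor NRP2 down from 3.50 ± 0.384 to 1.30 ± 0.215 CPM. NRP2 was at 1.64 and 1.68 CPM with control shRNA. Genes of neurons and synapses had 4 rises and 6 falls of 21. NLGN1, a synaptic adhesion protein, was at 1.03 and 0.616 CPM in the wild-type and 16.4 and 14.1 CPM in the knockout libraries (log2 fold change 4.22, SE 0.23), and GABRE, a subunit of GABA receptors, fell from 35.4 ± 0.0582 to 3.05 ± 0.955 CPM. With control shRNA NLGN1 was at 3.25 and 2.74 CPM and GABRE at 29.1 and 26.1 CPM.

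Developmental signalling lists were split. In the BMP and TGF-beta list 10 of 34 tested members rose and 9 fell, the highest counts of any setting, with 5 to 10 rises and 5 to 9 falls over the alternatives. LTBP1, which stores latent TGF-beta in the matrix, was at 1.53 and 1.38 CPM in the wild-type and 16.4 and 14.1 CPM in the knockout libraries (log2 fold change 3.39, SE 0.23). NOG, the BMP antagonist noggin, was at 0.579 and 0.905 CPM in the wild-type and 0 and 0.104 CPM in the knockout libraries (log2 fold change −3.71, SE 0.87). INHBB, an activin subunit, fell from 60.7 ± 4.11 to 12.03 ± 0.979 CPM and FSTL1, a follistatin relative, from 177 ± 4.60 to 62.5 ± 1.19 CPM. TGFBR2, the type II TGF-beta receptor, fell from 116 ± 3.62 to 54.3 ± 1.35 CPM, while its neighbour median was 0.39. Among Notch genes 2 rose and 6 fell of 20. JAG1, a ligand, rose from 97.7 ± 3.67 to 132 ± 0.843 CPM, and MAML2, a coactivator, fell from 23.01 ± 1.24 to 5.98 ± 0.375 CPM. KITLG, the ligand of the KIT receptor, was at 31.7 and 36.7 CPM in the wild-type and 119.9 and 115 CPM in the knockout libraries (log2 fold change 1.78, SE 0.08), and PDGFA and VEGFA fell from 6.55 ± 0.556 to 2.29 ± 0.0593 CPM and from 84.6 ± 3.49 to 50.1 ± 2.20 CPM. FGF2 rose from 9.59 ± 0.525 to 24.3 ± 0.282 CPM, with a neighbour median of 0.35, and FGFBP1, which releases FGFs from the matrix, fell from 78.3 ± 8.34 to 38.8 ± 5.10 CPM. For the VEGF, PDGF and angiopoietin list 2 of 11 tested members rose and 4 fell, and for the FGF list 2 of 12 tested members rose and 1 fell.

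In the actin-binding list 24 of 44 tested members fell, mostly by less than 2-fold (54.5%, against 20.5% of protein-coding genes), 20 did not pass and none rose, and the median log2 fold change was −0.27. The list was abundant, with sums of 10363 and 9719 CPM in wild type, and abundant genes passed more often. Of protein-coding genes at 10 to 100 CPM 24.4% fell, and of those at 100 CPM or more 27.2% fell. Over all alternative settings, 17 to 24 members fell and 0 to 2 rose. ACTB, beta actin, was at 869 and 999 CPM in the wild-type and 804 and 819 CPM in the knockout libraries. ACTG1, gamma actin, was at 1180.1 and 1145 CPM in the wild-type and 943 and 937 CPM in the knockout libraries. Both knockout libraries lay below both wild-type libraries for both actins, but the ACTB call was lost without knockout library 1 (−0.19), knockout library 2 (−0.22) or wild-type library 2 (−0.10), and in the fit of the wild-type and knockout libraries alone (−0.21). FLNA, a filamin that crosslinks actin, fell from 352 ± 36.8 to 192 ± 13.8 CPM. CNN3, acidic calponin, was at 21.6 and 21.7 CPM in the wild-type and 7.62 and 6.79 CPM in the knockout libraries (log2 fold change −1.59, SE 0.13), and control shRNA libraries held 9.93 and 8.46 CPM. MYO5C, an unconventional myosin of exocrine vesicles, was at 81.3 and 76.9 CPM in the wild-type and 34.8 and 30.8 CPM in the knockout libraries (log2 fold change −1.27, SE 0.09). MYH9, the nonmuscle myosin heavy chain, fell from 365 ± 13.6 to 308 ± 23.2 CPM, a call lost without knockout library 2 (−0.17). MSN and RDX, which link membranes to actin, fell from 403 ± 16.9 to 299 ± 15.1 CPM and from 338 ± 32.5 to 226 ± 4.34 CPM, with a neighbour median of −0.67 for RDX on chromosome 11. Only CNN3 and MYO5C fell at least 2-fold.

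Most tested clock genes fell. The core clock is a feedback loop in which CLOCK or NPAS2 with BMAL1 drive the PER, CRY, REV-ERB and ROR genes. In the clock list 14 of 22 tested members fell (63.6%), 6 did not pass and 2 rose, with a median log2 fold change of −0.55, and 10 to 14 fell over the alternative settings. RORA, an activator of BMAL1, was at 21.5 and 21.5 CPM in the wild-type and 6.25 and 5.12 CPM in the knockout libraries (log2 fold change −1.92, SE 0.12, edgeR adjusted p = 2.53e-07). NPAS2 was at 14.4 and 15.5 CPM in the wild-type and 5.02 and 5.20 CPM in the knockout libraries (log2 fold change −1.55, SE 0.10). BMAL1 was at 20.6 and 21.3 CPM in the wild-type and 12.7 and 14.02 CPM in the knockout libraries (log2 fold change −0.65, SE 0.08). The knockout libraries of all 3 lay below both wild-type libraries, which the naming rule required of RORA and NPAS2. BHLHE40, a repressor of the loop, fell from 86.6 ± 11.1 to 36.9 ± 0.960 CPM, and NFIL3 from 40.8 ± 2.60 to 23.1 ± 0.923 CPM. PER2 fell from 4.78 ± 0.210 to 2.98 ± 0.654 CPM, a call lost without knockout library 1 (−0.47) or wild-type library 2 (−0.63). The 2 rises were small: CLOCK rose from 47.4 ± 1.06 to 56.5 ± 1.83 CPM, a call lost without knockout library 2 (0.22), and HLF from 126 ± 4.15 to 139.6 ± 2.20 CPM. The HLF call was lost without knockout library 1 (0.17), knockout library 2 (0.14) or wild-type library 1 (0.12), with no filter on low counts (0.15) and with the wild-type and knockout libraries alone (0.15). CRY1 (log2 fold change 0.08), NR1D1 (−0.17) and NR1D2 (0.11) did not pass the test. The labels give no time of harvest.

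**Figure D4:**
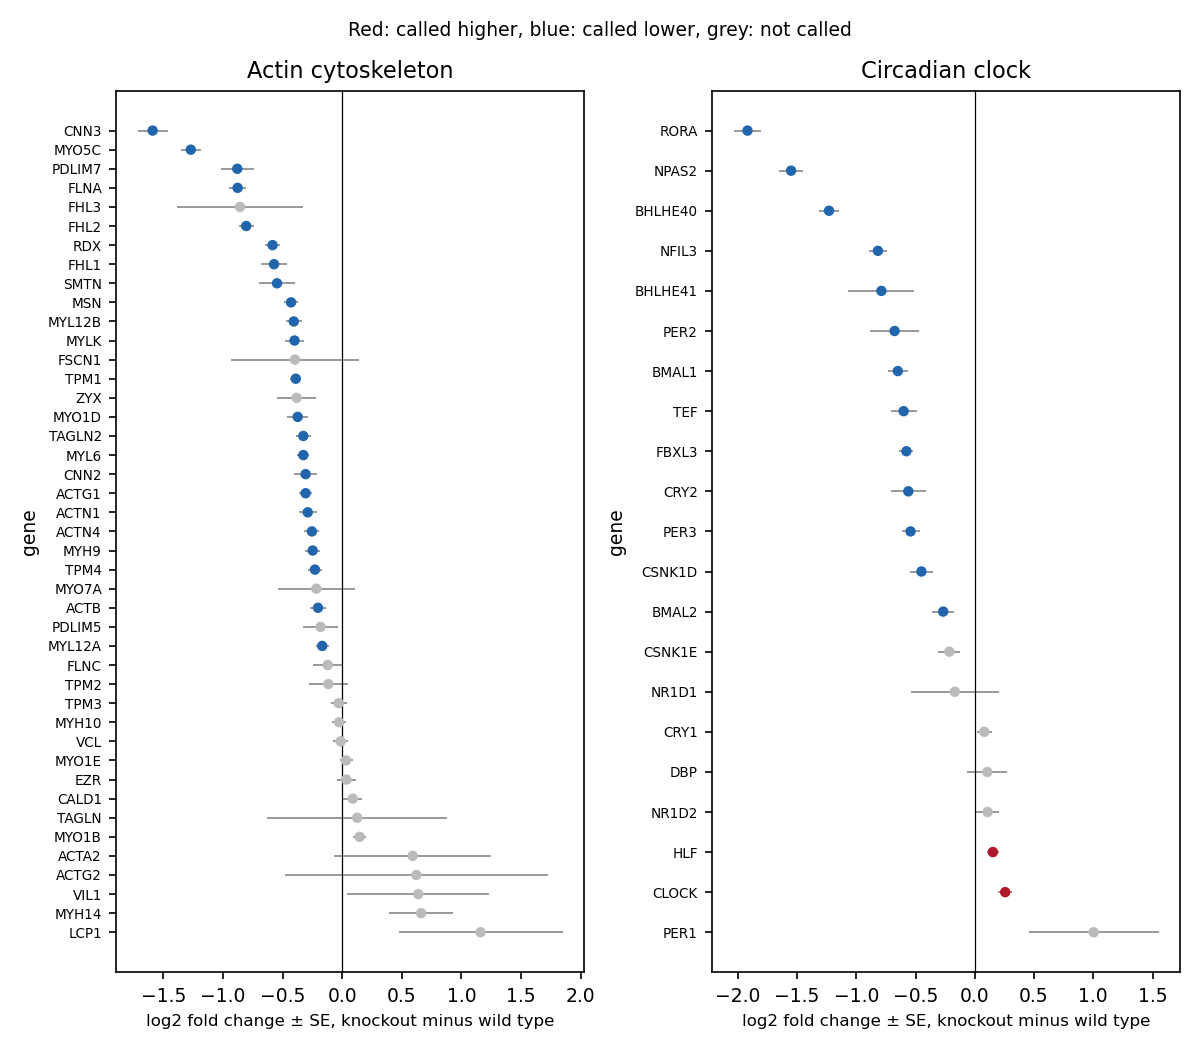
Log2 fold change, knockout minus wild type (x axis), of the tested members of the actin and clock lists but 1 of each, one gene per row, with bars of 1 SE and colour for members that passed the test. No actin member passed on the right of 0, and RORA at −1.92 and NPAS2 at −1.55 are the lowest clock members.

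Transcription factor families were mixed. SOX2, a stem-cell factor, was at 1.24 and 1.23 CPM in the wild-type and 8.85 and 9.71 CPM in the knockout libraries (log2 fold change 2.91, SE 0.23) and SOX4 rose from 48.2 ± 5.09 to 95.9 ± 2.41 CPM (control shRNA 76.8 and 73.9 CPM), while SOX13 fell from 4.37 ± 0.0796 to 1.69 ± 0.264 CPM and SOX17, a Mullerian factor, from 15.7 ± 2.28 to 9.34 ± 1.32 CPM. The SOX list had 2 rises and 3 falls of 7. In the forkhead list 5 of 24 tested members rose and 5 fell, with FOXQ1 down from 7.85 ± 0.988 to 1.60 ± 0.263 CPM and FOXP2 up from 0.233 ± 0.0217 to 1.22 ± 0.174 CPM. In the KLF and GATA list 3 of 20 tested members rose and 7 fell. KLF5, an epithelial factor, fell from 94.2 ± 0.937 to 36.6 ± 0.640 CPM and KLF7 from 14.3 ± 0.186 to 3.48 ± 0.543 CPM, while KLF4 rose from 0.956 ± 0.226 to 2.43 ± 0.182 CPM. Among nuclear receptors 3 rose and 8 fell of 31, with HNF4G up from 8.44 ± 1.48 to 16.6 ± 0.889 CPM. In the helix-loop-helix list 3 rose and 9 fell of 26. ATOH8 rose from 0 to 1.14 CPM (at least 19.6-fold higher in knockout), and MITF rose from 104 ± 0.559 to 217 ± 1.81 CPM.

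Genes of the chromatin machinery changed mostly by less than 2-fold, as protein-coding genes in general did, of which 10.4% changed at least 2-fold. For histone acetyltransferases and bromodomain readers 1 of 31 tested members rose and 13 fell, with a range of 8 to 16 falls over the alternatives. EP300, the acetyltransferase of active enhancers, was at 21.04 and 29.05 CPM in the wild-type and 15.02 and 16.5 CPM in the knockout libraries (log2 fold change −0.67, SE 0.13). CECR2, a bromodomain partner of ISWI enzymes, was at 25.9 and 26.4 CPM in the wild-type and 10.7 and 10.4 CPM in the knockout libraries (log2 fold change −1.31, SE 0.09) and at 13.4 and 12.5 CPM with control shRNA. TRIM24 fell from 45.8 ± 1.06 to 28.2 ± 0.700 CPM. NCOA3 was the only member of that list to rise, from 388 ± 9.98 to 446 ± 7.32 CPM. This call was lost without knockout library 1 (0.19) or knockout library 2 (0.22), with the wild-type and knockout libraries alone (0.19) and with control shRNA in the reference (0.084), and control shRNA libraries held 463 and 451 CPM. Histone methyltransferases and demethylases had 6 rises and 8 falls of 45 (13.3% and 17.8%, under the 19.6% and 20.5% of protein-coding genes). KMT2A and KMT2C, which methylate histone H3 lysine 4, fell from 69.8 ± 6.38 to 42.3 ± 4.11 CPM and from 104 ± 4.62 to 70.2 ± 5.58 CPM, and the neighbour median of KMT2A on chromosome 11 was −0.50. The CHD, ISWI and INO80 list had 5 rises and 5 falls of 37 (13.5% each, also under those shares). SMARCA1, an ISWI motor protein, rose from 45.7 ± 5.41 to 103 ± 3.55 CPM (log2 fold change 1.17), the 1 member to change at least 2-fold. In the DNA methylation list 2 of 17 tested members rose and 6 fell, with TET1, which oxidises methylated cytosine, up from 3.64 ± 0.285 to 6.47 ± 1.12 CPM. The TET1 call was lost without knockout library 2 (0.64). In the same list GADD45B went down from 7.69 ± 0.171 to 3.32 ± 0.586 CPM, with a neighbour median of −0.31.

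Pathways that are often altered in this tumour type were near the background. In the PI3K, AKT and mTOR list 8 of 43 tested members rose and 10 fell. AKT1 fell from 90.5 ± 4.40 to 52.6 ± 1.49 CPM, and its neighbour median on chromosome 14 was −0.78, as large as its own log2 fold change of −0.78. SESN3, an inhibitor of mTORC1, rose from 2.88 ± 0.597 to 7.93 ± 0.750 CPM and IRS2, an adaptor of the insulin receptor, fell from 23.9 ± 1.67 to 14.5 ± 0.798 CPM. In the RAS and RAF list 8 of 39 tested members rose and 9 fell. RASSF2 was at 0 in wild type and at 2.25 and 2.38 CPM in knockout (at least 39.95-fold higher in knockout), with a neighbour median of −0.30. RASGRP1 and RASGRP3, activators of RAS, rose from 0.719 ± 0.315 to 4.06 ± 0.385 CPM and from 0.439 ± 0.0955 to 2.23 ± 0.170 CPM, and KSR1, a scaffold of the pathway, was at 10.5 and 10.1 CPM in the wild-type and 2.55 and 1.67 CPM in the knockout libraries (log2 fold change −2.29, SE 0.18).

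Enzymes of glycan, lipid and retinoid metabolism changed in both directions. In the mucin and O-glycan list 13 of 25 fell and 7 rose, so 80% changed against 40.1% of protein-coding genes. GALNT1, which starts O-glycans, was at 146 and 161 CPM in the wild-type and 73.02 and 81.9 CPM in the knockout libraries. GALNT2, of the same family, was at 88.03 and 101 CPM in the wild-type and 46.2 and 47.6 CPM in the knockout libraries. Both knockout libraries of each lay below both wild-type libraries. GALNT18 was at 2.98 and 2.61 CPM in the wild-type and 0.0822 and 0.183 CPM in the knockout libraries (log2 fold change −4.34, SE 0.33). GCNT2 and GCNT3, which branch glycans, rose from 0.434 ± 0.205 to 11.2 ± 0.524 CPM and from 36.7 ± 4.11 to 121 ± 0.702 CPM. GCNT2 was at 2.35 and 2.96 CPM with control shRNA. Retinoid and aldehyde enzymes had 7 rises and 8 falls of 30. ALDH1A1, which makes retinoic acid, was at 1.32 and 1.27 CPM in the wild-type and 59.01 and 65.5 CPM in the knockout libraries (log2 fold change 5.59, SE 0.16, edgeR adjusted p = 5.84e-10). No library of one group overlapped the other for ALDH1A1, which the naming rule required. LRAT, which stores retinol as esters, was at 4.46 and 3.44 CPM in the wild-type and 0.247 and 0.157 CPM in the knockout libraries (log2 fold change −4.27, SE 0.30). In the eicosanoid list 5 of 20 tested members rose and 7 fell. ALOX5, the first enzyme of leukotriene synthesis, was at 4.30 and 3.88 CPM in the wild-type and 0.219 and 0.157 CPM in the knockout libraries (log2 fold change −4.42, SE 0.26), PTGS1 fell from 13.7 ± 1.03 to 4.66 ± 0.427 CPM and PTGS2 rose from 1.80 ± 0.196 to 4.93 ± 0.698 CPM.

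Lists of detoxifying enzymes and antioxidants held more falls than rises. In the cytochrome P450, UGT and sulfotransferase list 5 of 26 tested members rose and 11 fell (42.3% lower). CYP39A1, which acts on oxysterols, fell from 8.63 ± 0.0131 to 2.35 ± 0.326 CPM and CYP3A7, a fetal liver enzyme with close copies, from 2.30 ± 0.488 to 0.254 ± 0.0102 CPM. CYP3A7 was at 0.805 and 0.475 CPM with control shRNA. UGT8, which makes galactosylceramide, rose from 2.98 ± 0.169 to 18.8 ± 0.888 CPM, with a neighbour median of 0.44. In the glutathione and ferroptosis list 7 of 32 tested members rose and 10 fell. HMOX1, heme oxygenase, was at 59.2 and 56.5 CPM in the wild-type and 27.7 and 23.7 CPM in the knockout libraries (log2 fold change −1.17, SE 0.08), and GPX2 fell from 2.70 ± 0.131 to 0.601 ± 0.0740 CPM. SLC11A2, an iron transporter, rose from 15.8 ± 1.96 to 45.1 ± 1.41 CPM, with a neighbour median of 0.51. In the metallothionein and zinc list 1 rose and 8 fell of 23. MT1M, which has near-identical copies, was at 0 in knockout (at least 12.5-fold lower in knockout), MT1F and MT1X fell from 23.96 ± 2.23 to 13.8 ± 1.49 CPM and from 9.63 ± 1.18 to 6.19 ± 0.847 CPM, and the zinc importer SLC39A8 fell from 106 ± 2.02 to 58.1 ± 0.357 CPM, with 46.1 and 48.9 CPM in control shRNA libraries.

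Transporters of amino acids held more falls than rises. In the amino acid list 5 of 28 tested members rose and 12 fell. SLC7A5 and SLC3A2, the chains of the LAT1 transporter, fell from 58.9 ± 10.5 to 40.3 ± 1.76 CPM and from 219 ± 7.53 to 130.0 ± 0.758 CPM. SLC6A20, a proline transporter, was at 13.1 and 17.1 CPM in the wild-type and 3.10 and 2.69 CPM in the knockout libraries (log2 fold change −2.38, SE 0.15), and SLC38A2 rose from 164 ± 0.618 to 297 ± 2.38 CPM with a neighbour median of 0.73. Among carriers of glucose and monocarboxylates 5 rose and 6 fell of 22. SLC2A1, the common glucose transporter GLUT1, fell from 83.8 ± 4.66 to 49.99 ± 3.37 CPM. SLC2A2, GLUT2, was at 13.9 and 16.8 CPM in the wild-type and 2.63 and 2.72 CPM in the knockout libraries (log2 fold change −2.52, SE 0.23), but stood at 2.82 and 2.88 CPM with control shRNA. In the ABC transporter list 10 of 31 tested members rose and 8 fell. ABCG1, which exports cholesterol, was at 11.6 and 13.9 CPM in the wild-type and 1.37 and 1.38 CPM in the knockout libraries (log2 fold change −3.21, SE 0.16). Among potassium channels 6 rose and 6 fell of 23. Adhesion G protein-coupled receptors had 5 rises and 3 falls of 17.

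Germline genes were near the background, with 3 rises and 3 falls of 15 (20% each, against 19.6% and 20.5% of protein-coding genes). TEX15, a meiotic protein, rose from 1.97 ± 0.0199 to 12.7 ± 1.00 CPM. TDRD9, a helicase of the piRNA pathway, was at 19.2 and 19.4 CPM in the wild-type and 0.466 and 0.261 CPM in the knockout libraries (log2 fold change −5.72, SE 0.26), with a neighbour median of −0.70 on chromosome 14. MAGEA1 rose from 0.0594 ± 0.0328 to 1.55 ± 0.0605 CPM, but control shRNA libraries held 4.74 and 5.39 CPM, and it has near-identical copies.

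Housekeeping lists held no change of 2-fold, which for abundant genes is near the background. Of protein-coding genes at 100 CPM or more, 3.78% changed at least 2-fold. In the wild-type libraries the 30 proteasome subunits summed to 6681 and 6319 CPM. The 21 chaperonin and initiation factor genes summed to 8703 and 8373 CPM there. In the proteasome list 4 of 30 subunits rose and 4 fell, with 1 to 9 rises and 0 to 5 falls over the alternative settings. In the chaperonin and translation initiation factor list 3 of 21 rose and 4 fell, with 1 to 8 rises and 1 to 5 falls. PSMA7, a proteasome subunit, rose from 463 ± 57.7 to 579 ± 3.10 CPM and was at 551 and 528 CPM with control shRNA. EIF3I, an initiation factor subunit, fell from 192 ± 6.01 to 156 ± 5.40 CPM and was at 163 and 164 CPM with control shRNA.

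In 23 of the 173 genes named here that passed the test (13.3%, against 19.1% of all genes called), both control shRNA libraries lay nearer to the knockout mean than to the wild-type mean in CPM. They were CD55, CDH6, CECR2, CNN3, CYP3A7, EIF3I, GPC3, GPX2, HMOX1, LGALS3, MAGEA1, MMP1, NAPSA, NCOA3, NRP2, NTNG1, PSMA7, RASGRP1, SLC2A2, SLC39A8, SOX4, TDRD9 and TGFBR2.

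**Figure D5:**
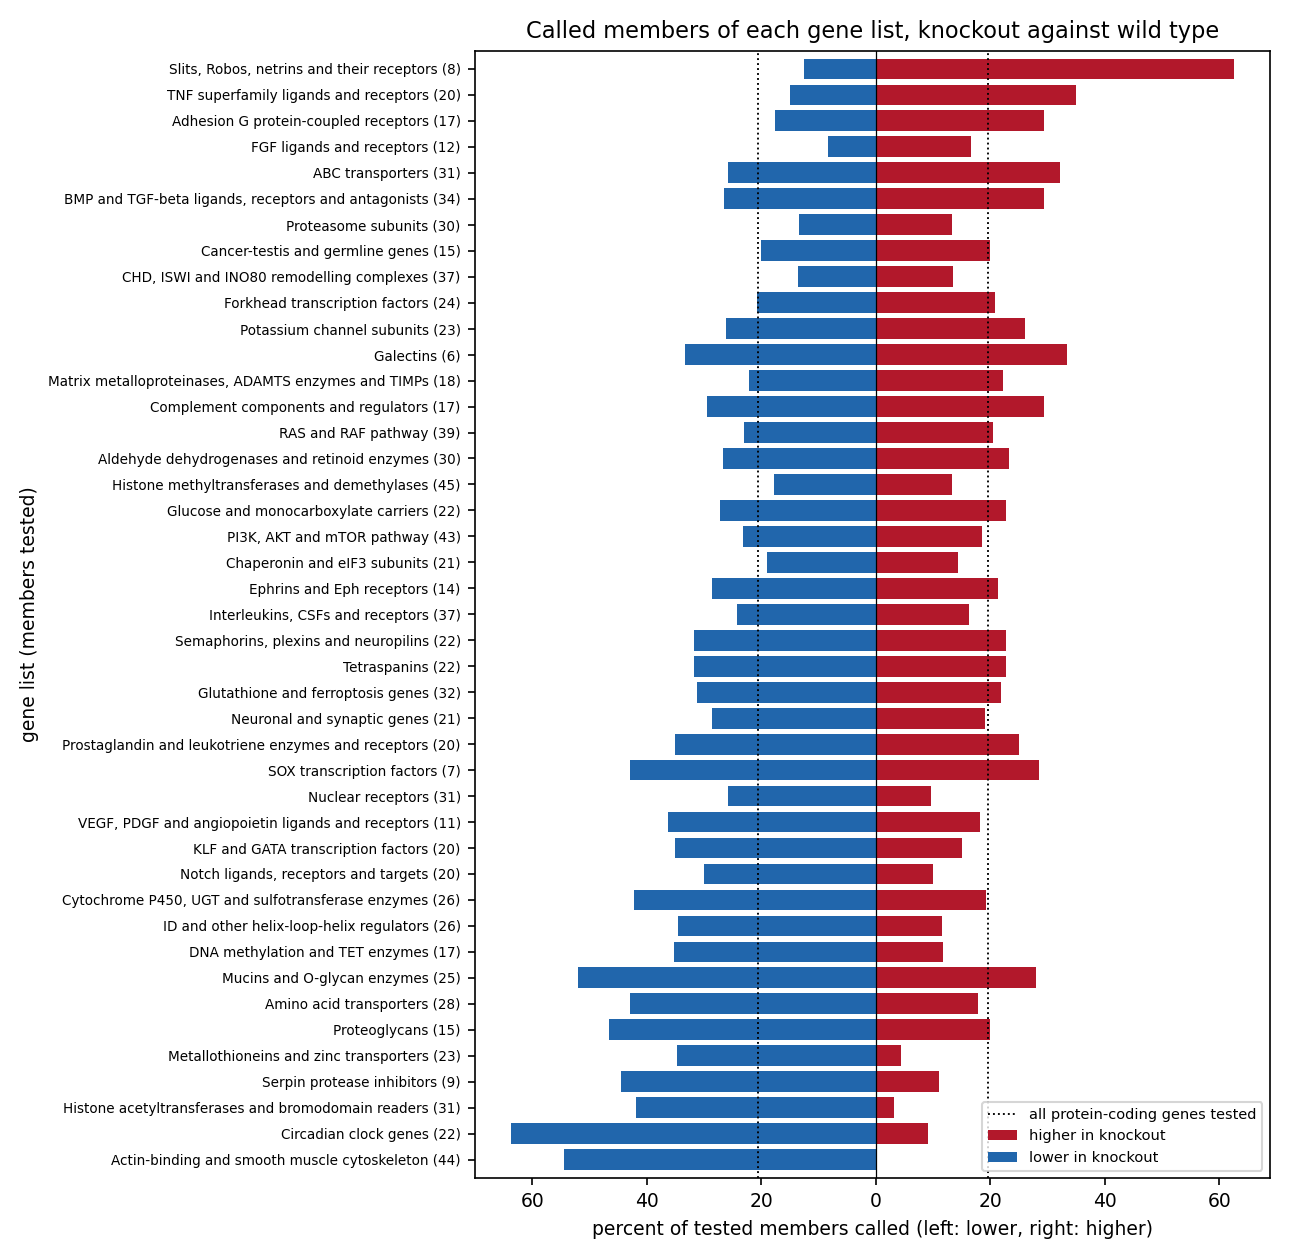
Share of the tested members of each gene list that rose (right) or fell (left) in the knockout, in percent on the x axis, one list per row, with dotted lines at the shares of all protein-coding genes (19.6% up, 20.5% down). The actin list has 54.5% lower and none higher, the clock list 63.6% lower, and the Slit, Robo and netrin list 62.5% higher.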

How the data were processed

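Total RNA of 8 libraries, 2 in each of 4 groups, was sequenced; groups follow the labels. The authors deposited expected counts per Ensembl gene, made with Bowtie2 and RSEM 1.2.12 on hg19, per the submitters' processing notes. Which annotation release and strand setting were used is not given in the sources used here. All values were whole numbers. RSEM shares reads among near-identical copies, so such genes, overlapping genes and antisense partners are uncertain.

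Testing used edgeR 4.0.16 in R 4.3.3: filterByExpr by group, TMM scaling, a quasi-likelihood F-test on all 8 libraries with group means and no block, and Benjamini-Hochberg adjustment. Residual degrees of freedom were 4, and the common biological variation was 7.74% (coefficient of variation). Levels are CPM after scaling, as mean ± SD (n = 2), and SE is that of the log2 fold change. Where a group held 0 counts, folds are lower bounds, with 3 counts per group as the floor. With 1 to 3 counts the ratio has an exact 95% interval. Both cover counting error only. Symbols were looked up by Ensembl ID, then in GENCODE 29, and named 16101 of the tested genes. Chromosomes and neighbours follow GENCODE 29. Promoters are from RefSeq.

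Genes named in the text were drawn from ARID1A, the 10 highest genes switched on and off, the 10 largest rises and falls at 100 CPM or more, and in each list the 2 strongest members of the more frequent direction and the 1 strongest of the other. Apart from ARID1A, all of these came only from genes whose wild-type and knockout libraries did not overlap. Genes beside those drawn by this rule were chosen after their values were seen, for their known role. The members and gene lists were chosen with earlier results of these data known, so list counts are descriptions. The lists are the 43 whose counts the list plot shows and 5 of markers. Alternatives were DESeq2 1.42.0, other scalings, no filter, a replicate block, fewer libraries and another reference. The fit was tested on simulated data. A few genes are not reported here by name.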

Additional observations from a re-analysis of the deposited data

How the results depend on the processing

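Changed genes numbered 5010 by DESeq2, 5709 with RLE scaling, 5719 with upper-quartile scaling, 5993 with no filter, 4846 with the wild-type and knockout libraries alone, and 6933 with the control shRNA libraries added to the reference. Leaving out 1 library gave 3928 to 5651 in all, 1852 to 2760 higher and 2076 to 2891 lower, with fewest without knockout library 2. ARID1A fell in every one of these settings, by −0.98 to −0.52 when 1 library was left out. The labels state no pairing by replicate number. Deviations of same-numbered wild-type and knockout libraries correlated at 0.0296, which does not settle whether they were paired. A replicate block gave 5500 changed genes. Of the 173 genes named in the report that passed the test, 17 lost their call or changed sign in some setting, 14 of them when 1 library was left out. Of all 171 genes that met the naming rule, not all of which are described, 40 lost their call or changed sign in some setting. For 17 of these 40 genes this happened also with all wild-type and knockout libraries kept. With control shRNA in the reference GPC3 (0.50) and NAPSA (0.022) reversed. So did 2 genes that met the naming rule but are not described, FGFR2 (−0.18) and SERPINE2 (−0.12). At 2 CPM or more on the high side 12 genes were switched on and 0 off, and with a mean of at most 0.05 CPM on the low side, a setting added after the data were seen, 28 and 9. Of 86 counts of list members (43 lists, up and down), 37 moved by over 1.5 times in some setting, 21 of them with all wild-type and knockout libraries kept. Genes under 1 CPM were called only at large folds, and 2 libraries per group limit every comparison.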

Other observations

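RNA types other than protein-coding genes leaned differently. Of 633 long intergenic RNAs tested, 77 rose (12.2%) and 37 fell (5.85%), and of 682 processed pseudogenes 16 rose (2.35%) and 49 fell (7.18%). Antisense genes were even, with 48 rises and 41 falls of 710, and snoRNA genes had 13 rises and 11 falls of 162. The strand setting of the counting is not given in the sources used here, so antisense values may hold reads of their partner genes.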
